A study of Danio rerio with 6 samples.

Results

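Oxidative phosphorylation is carried out in the inner mitochondrial membrane by 5 protein complexes, and this account follows the transcripts of the nuclear genes that encode their parts in zebrafish treated with DAPT or with its solvent DMSO. Members were the genes whose symbol begins with nduf, sdha to sdhd, uqcr, cox4 to cox8 or atp5 and whose counts over the 6 libraries summed to 10 or more. There were 104 such genes among the 25920 of the deposited table, and 105 before the count limit. Of the 104, 90 encode subunits, 12 were classed as assembly factors whose symbols share the pattern, and 2 encode inhibitors of the ATP synthase. The 12 include atp5s, for coupling factor B. The gene ndufa4l2, with 7 counts in all, lay just outside the limit, and ndufs8b (12 counts) and sdhda (38 counts) lay just inside it.

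Complexes I to IV pass electrons from NADH and succinate to oxygen, and complexes I, III and IV pump protons across the membrane as they do so. Complex V, the ATP synthase, uses the returning protons to make ATP, the main energy supply of beating heart muscle. Apart from complex II, each complex also holds subunits encoded in the mitochondrial genome, which were not analysed here. Several nuclear subunits exist as paralogues, and in mammals some of these are forms of muscle or of low-oxygen tissue.

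The DAPT fish were kept in 100 µM DAPT from 60 hours post fertilization (hpf) to 96 hpf, and the control fish in DMSO over the same period, with 3 libraries per group. DAPT inhibits gamma-secretase, which cleaves Notch receptors and so allows them to signal. All fish carried Tg(myl7:mCherry), a transgene in which a heart muscle promoter drives a red fluorescent protein, and all were 96 hpf old at collection. The labels give hearts as the tissue and 1 µg of total RNA as the input, whereas the series' own text speaks of collected embryos, and no label says whether animals were pooled or whether replicates came from separate clutches. The p-values below therefore rest on library-to-library spread that may be technical only.

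Libraries held 21439371 to 21808613 counts with DAPT and 20542549 to 20656633 with DMSO. Markers of heart muscle were present in every library, with a summed level of 7633 to 7912 CPM (a count relative to the library's TMM-adjusted total) with DAPT and 3742 to 4764 CPM with DMSO. Of the 7 heart muscle markers found, 6 rose and actc1a fell. Markers of other tissues were present too. The 5 retinal genes summed to 711 to 731 CPM with DAPT and 1479 to 2355 CPM with DMSO, and the 5 liver genes to 1359 to 1388 CPM with DAPT and 2589 to 3040 CPM with DMSO, and every one of them fell. These values go against a sample of heart alone. In such bulk RNA a change in the number of cells of a type and a change in RNA per cell cannot be told apart.

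Most of the nuclear oxidative phosphorylation transcripts were modestly higher with DAPT. Of the 104 members 102 had enough counts to be tested, and of these 82 rose, 3 fell and 17 did not pass an adjusted p of 0.05 in edgeR's quasi-likelihood test. That is 80.4% higher and 2.94% lower, where 22.4% of all 22092 genes tested were higher and 24.3% were lower. Their median log2 fold change, DAPT minus DMSO, was 0.31 with a middle range of 0.21 to 0.42, against a median of -0.004 over all genes tested. In CPM, DAPT and DMSO values were fully apart in 85 of the 102 members, 82 of them with DAPT on top. Of all genes tested 56.8% were apart in CPM and 27.8% were apart with DAPT on top. Together the members took up 1.47, 1.43 and 1.45% of all counts in the DAPT libraries, against 1.29, 1.36 and 1.24% in the DMSO libraries. All 3 DAPT shares lay above all 3 DMSO shares.

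**Figure D1:**
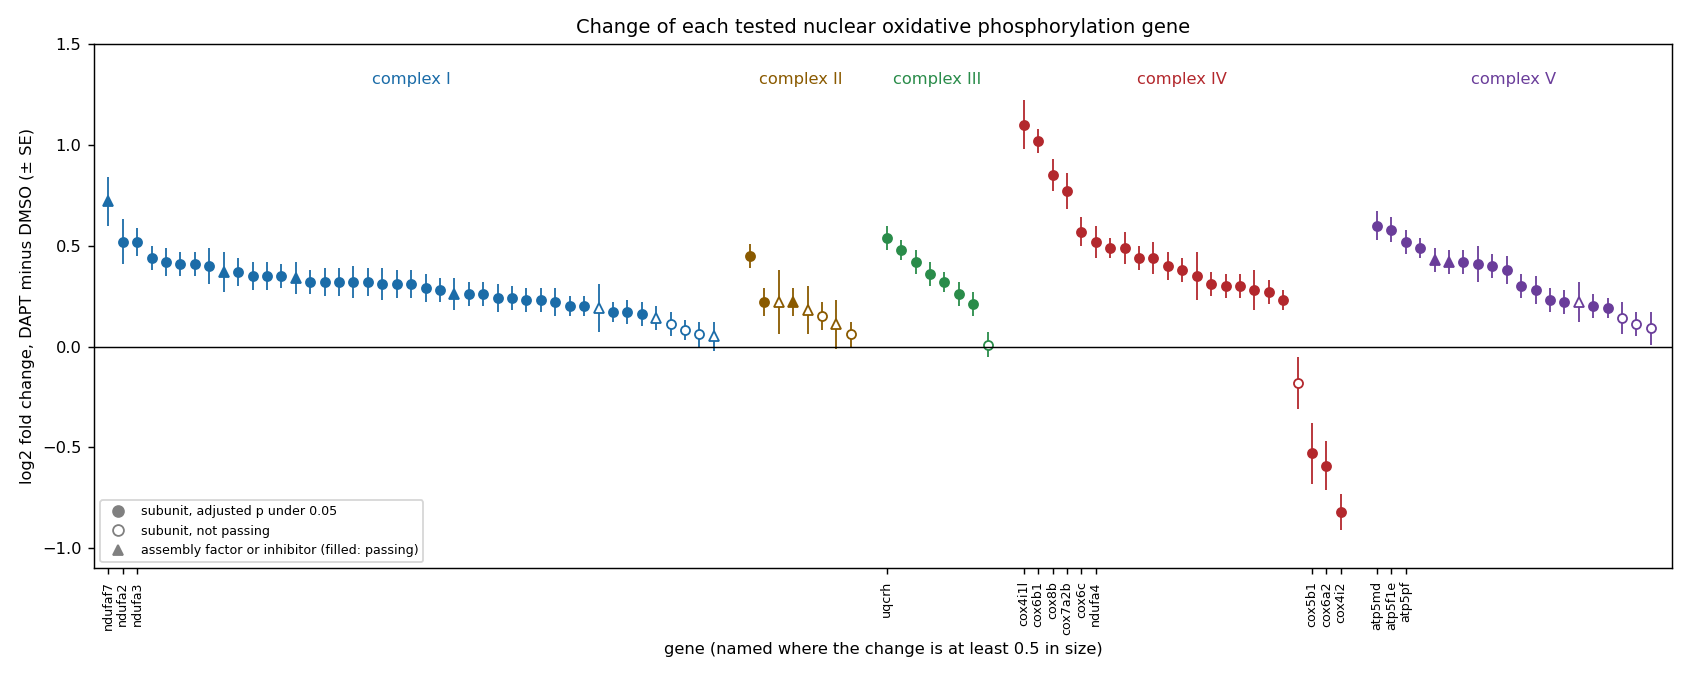
Log2 fold change (DAPT minus DMSO, vertical axis, with its standard error) of the 102 tested members, grouped by complex and ordered by size within it; filled symbols passed an adjusted p of 0.05, and names are given for changes of at least 0.5 in size. Complexes I, II, III and V hold no gene below 0, while 4 genes of complex IV lie below it.

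The size of this rise depended on the scale. TMM scaling, used above, leaves the median of all genes at about 0. On library totals alone the median of all genes tested moved to -0.10 and that of the members to 0.21. There 60 members were higher and 3 lower, but the share of all genes called on that scale was not computed. On the authors' TPM (levels per transcript length, tested as log2 of TPM plus 1 with limma) the median of all genes was -0.13 and that of the members 0.14, and 42 members were higher and 4 lower, where 11.8% of all genes were higher and 35.6% lower. Relative to the median of all genes the members stood 0.31 higher with TMM, 0.31 with library totals and 0.27 with TPM. Going from TMM to library totals shifts all genes by nearly the same amount. The second value was therefore fixed by the first and is no check on it. No gene that passed changed its sign under these scalings except ndufa10, which was at -0.00 on TPM. With library totals none could, since the smallest change that passed, 0.16, was larger than the shift. Calls lost with library totals or on TPM are named below for only some genes. The members that were apart were counted in CPM alone. On TPM the groups of some of them overlapped, and how many was not counted. In atp5f1c, for example, TPM was 508 in DAPT replicate 3 and 535 in DMSO replicate 2.

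Libraries of a group were close to each other, with a median coefficient of variation over the members of 3.33% with DAPT and 6.13% with DMSO. The wider spread with DMSO came with a common order, in which DMSO replicate 3 was the lowest of its group in 81 of 102 members and DMSO replicate 2 the highest in 73. The same DMSO replicate 3 had the lowest summed heart muscle markers of its group, at 3742 CPM, and the lowest fast skeletal muscle markers, at 5680 CPM. Its differences were not confined to muscle. It also had the lowest summed liver markers of its group, at 2589 CPM. Its retinal and neuronal markers were the highest of the group, at 2355 and 767 CPM. Fast skeletal muscle markers summed to 7630 to 9692 CPM with DAPT and 5680 to 7625 CPM with DMSO, and 3 of 7 rose. Neither muscle marker list was at 0 in any library, and the part of muscle RNA in the members' rise was not tested. Without DMSO replicate 3, 78 members were higher, 3 were lower and the median was 0.26. The share of all genes called without that library was not computed.

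Complex I, the NADH dehydrogenase, is the entry point for electrons from NADH. Of its 37 subunit genes 36 were tested, of which 33 rose, none fell and 3 did not pass. The median log2 fold change was 0.31, with a range of 0.06 to 0.52. These counts depended on the scale: 22 rose with library totals (median 0.21) and 12 on TPM (median 0.14). On TPM 11.8% of all genes were higher, and with library totals that share was not computed. By arm, the medians with TMM scaling were 0.29 for the NADH-oxidising arm (7 of 8 higher), 0.32 for the ubiquinone-reducing arm (7 of 8 tested) and 0.30 for the membrane arm with the acyl carrier genes (19 of 20). No test was made between the arms. The summed TPM of the subunit genes was 6553, 6460 and 6517 in the DAPT libraries, against 5907, 6326 and 5829 in the DMSO libraries. The closest pair was DAPT replicate 2 and DMSO replicate 2, so the groups stood apart by a small margin.

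The 3 largest changes among the subunit genes of complex I were in accessory subunits. ndufa2 (gene ID 554125), which encodes an accessory subunit of the NADH-oxidising arm, had 25.7, 23.7 and 25.9 CPM in the DAPT libraries, against 17.1, 20.7 and 14.7 CPM in the DMSO libraries. Its log2 fold change was 0.52 ± 0.11 (adjusted p = 0.00157). ndufa3 (gene ID 445122), for an accessory subunit of the membrane arm, had 43.1, 45.8 and 44.6 CPM in the DAPT libraries, against 32.9, 32.2 and 28.4 CPM in the DMSO libraries, a change of 0.52 ± 0.07 (adjusted p = 7.13e-05). For ndufa5 (gene ID 541328), an accessory subunit of the ubiquinone-reducing arm, the change was 0.44 ± 0.06 (adjusted p = 9.94e-05). In each of these 3 genes every DAPT library lay above every DMSO library.

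The smallest changes that passed in complex I were those of ndufv1, ndufs8a and ndufa10. Among other core subunit genes, chosen after their values were seen, ndufv2 was at 0.20, ndufs7 at 0.32 and ndufs3 at 0.35. ndufv1 (gene ID 445291) encodes the flavoprotein that binds NADH and FMN, and had 271, 281 and 281 CPM in the DAPT libraries, against 250, 258 and 232 CPM in the DMSO libraries, a change of 0.17 ± 0.06 (adjusted p = 0.0312). ndufs8a (gene ID 406413) encodes an iron-sulphur protein near the ubiquinone site, and changed by 0.17 ± 0.05 (adjusted p = 0.0245). The accessory gene ndufa10 was the weakest call of the complex at 0.16 ± 0.06 (adjusted p = 0.0405). These 3 calls rested on small differences, although their groups did not overlap in CPM. On TPM the groups of all 3 overlapped. In the order ndufv1, ndufs8a and ndufa10, the calls were lost with library totals (adjusted p = 0.278, 0.298 and 0.401). They were lost on TPM with limma as well (adjusted p = 0.836, 0.91 and 0.985). All 3 were also lost when single libraries were left out. For ndufv1 the adjusted p was 0.0591, 0.085 and 0.102 without DAPT replicates 1, 2 and 3, and 0.057 and 0.0658 without DMSO replicates 1 and 3. For ndufs8a it was 0.0598, 0.0678 and 0.0765 without the DAPT replicates in turn and 0.0664 without DMSO replicate 1. For ndufa10 it was 0.0638, 0.133 and 0.0923 without the DAPT replicates in turn, and 0.12 and 0.0726 without DMSO replicates 1 and 3, and it was 0.0637 with the stricter filter on low counts. A further 3 calls of the complex were lost with single libraries left out, ndufab1b (0.22, up to 0.0613), ndufb10 (0.23, 0.0516 without DAPT replicate 2) and ndufb11 (0.24, 0.0889 without DAPT replicate 1).

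Genes of the complex that did not pass included ndufs1 and ndufb9. The first encodes the largest iron-sulphur subunit and had 223, 214 and 228 CPM in the DAPT libraries, against 210, 227 and 202 CPM in the DMSO libraries, a change of 0.06 ± 0.06 (adjusted p = 0.465). ndufb9 (gene ID 573021), a membrane arm subunit, had 0.08 ± 0.05 (adjusted p = 0.234). The order of levels per length in complex I was led by ndufb8, ndufb9 and ndufb4, at mean TPM values of 396, 329 and 272 over the 6 libraries. Of these, ndufb8 and ndufb4 rose by 0.31 ± 0.07 and 0.32 ± 0.06. The median subunit gene of the complex stood at 174 TPM with DAPT and 156 TPM with DMSO. At the bottom was ndufs8b, a paralogue of ndufs8a, with 12 counts in all, which was not tested.

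Complex II, the succinate dehydrogenase, belongs both to the respiratory chain and to the citric acid cycle. It had the lowest summed level and its groups overlapped. Its 5 subunit genes summed to 710, 701 and 726 TPM in the DAPT libraries, against 680, 732 and 670 TPM in the DMSO libraries. Of the 4 tested genes 2 rose and 2 did not pass. That is 50% higher, where 22.4% of all genes tested were higher. With library totals 1 of the 4 was higher, and on TPM also 1. So small a count is no result about the complex. sdhc (gene ID 445129), one of the membrane anchors, had 65.8, 68.6 and 69.3 CPM in the DAPT libraries, against 48.9, 52.4 and 47.8 CPM in the DMSO libraries, a change of 0.45 ± 0.06 (adjusted p = 5.59e-05), and every DAPT library lay above every DMSO library. sdha (gene ID 393884), the flavoprotein that oxidises succinate, changed by 0.22 ± 0.07 (adjusted p = 0.0166), but did not pass without DAPT replicates 1 or 3 (adjusted p = 0.0662 and 0.0671) or DMSO replicate 1 (0.059).

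The iron-sulphur subunit gene sdhb (gene ID 562149) had 186, 192 and 182 CPM in the DAPT libraries, against 188, 182 and 167 CPM in the DMSO libraries, a change of 0.06 ± 0.06 (adjusted p = 0.456). Its groups overlapped. The other membrane anchor gene, sdhdb, had 0.15 ± 0.07 (adjusted p = 0.0944) and passed without DMSO replicate 2 (0.24, adjusted p = 0.00587). With DMSO replicate 2 left out 3 of the 4 genes were higher, and without DAPT replicate 1, DAPT replicate 3 or DMSO replicate 1 there was 1. The paralogue sdhda made up 0.712 ± 0.23% of the sdhd TPM with DAPT and 0.853 ± 0.382% with DMSO, and was not tested.

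Complex III, the cytochrome bc1 complex, passes electrons from ubiquinol to cytochrome c. The test was passed by 7 of its 8 genes, each of them higher with DAPT, and missed by 1, with a median log2 fold change of 0.34. Summed TPM was 2575, 2491 and 2501 in the DAPT libraries, against 2194, 2345 and 2137 in the DMSO libraries, and the groups did not overlap. The largest change was that of uqcrh (gene ID 566723), the hinge protein of the complex, with 139, 131 and 126 CPM in the DAPT libraries, against 92.5, 91.5 and 87.7 CPM in the DMSO libraries and a change of 0.54 ± 0.06 (adjusted p = 1.15e-05). Small subunits uqcrb and uqcr10 followed at 0.48 ± 0.05 (adjusted p = 1.92e-05) and 0.42 ± 0.06 (adjusted p = 0.000188). These are among the best represented genes of the complex per length, with uqcrq at 451, uqcr10 at 430 and uqcrb at 351 TPM over all libraries, and uqcrq rose by 0.36 ± 0.06.

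The paralogues uqcrc2a and uqcrc2b, for a core protein of complex III, rose by 0.32 ± 0.05 and 0.26 ± 0.06, and uqcrc1 by 0.21 ± 0.06 (adjusted p = 0.0189), a call lost without DAPT replicate 1 (adjusted p = 0.088) or DMSO replicate 1 (0.066). uqcrfs1 (gene ID 406359) encodes the Rieske iron-sulphur protein, the mobile electron carrier within the complex. It had 160, 161 and 154 CPM in the DAPT libraries, against 152, 170 and 148 CPM in the DMSO libraries, a change of 0.01 ± 0.06 (adjusted p = 0.886), and was the only gene of the complex that did not pass. Its groups overlapped, and its sign changed between scalings, at -0.08 with library totals and -0.14 on TPM.

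**Figure D2:**
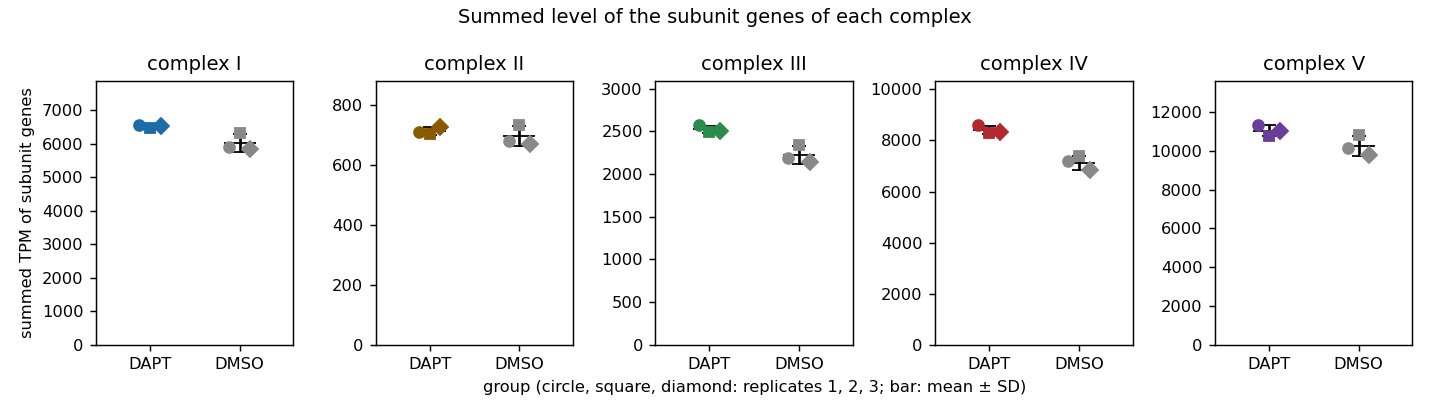
Summed TPM of the subunit genes of each complex (vertical axis, from 0) in each library, with the mean and SD of each group of 3. The groups stand apart in complexes I, III and IV and overlap in complexes II and V.

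Complex IV, cytochrome c oxidase, reduces oxygen to water. It showed both the widest range of changes among the 5 complexes, -0.82 to 1.1, and the only members that fell. Among its 23 genes there were 19 that rose and 3 that fell, ndufa4l2a did not pass, and the median was 0.38. Summed TPM was 8606, 8309 and 8343 in the DAPT libraries, against 7177, 7384 and 6840 in the DMSO libraries. The mean of the DAPT libraries was 1.18 times that of the DMSO libraries, where the ratio was 1.08 for complex I, 1.03 for complex II, 1.13 for complex III and 1.08 for complex V. No test was made between the complexes. The family cox7a is counted here with cox7a2l, which in mammals is known to help join complexes III and IV.

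The cox4 family encodes the largest nuclear subunit of the oxidase, and its 3 genes moved in opposite directions. The main form cox4i1 (gene ID 326975) had 291, 303 and 299 CPM in the DAPT libraries, against 251, 263 and 225 CPM in the DMSO libraries, a change of 0.27 ± 0.06 (adjusted p = 0.00443). Its paralogue cox4i1l (gene ID 402880) had 85.4, 78.6 and 93 CPM in the DAPT libraries, against 44.1, 45.2 and 30.6 CPM in the DMSO libraries, a change of 1.1 ± 0.12 (adjusted p = 1.50e-05). Each rose with no overlap of the groups in CPM. On TPM the groups of cox4i1 overlapped, with 726 in DAPT replicate 1 and 731 in DMSO replicate 2. Its call was lost on TPM with limma (adjusted p = 0.157). cox4i2 (gene ID 393776), whose mammalian counterpart is the form of lung and of low-oxygen conditions, had 9.46, 9.8 and 9.77 CPM in the DAPT libraries, against 16.1, 16 and 19.1 CPM in the DMSO libraries and fell by 0.82 ± 0.09 on the log2 scale (adjusted p = 2.22e-05). In the family's TPM the share of cox4i1l was 19.9, 18 and 20.9% with DAPT, against 12.7, 12.5 and 9.97% with DMSO. The share of cox4i2 was 2.04, 2.08 and 2.03% with DAPT, against 4.27, 4.1 and 5.75% with DMSO. Both shares were apart between the groups, for which an exact two-sided permutation test of 3 against 3 libraries gave p = 0.1, the smallest it can give.

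The cox6a and cox5b families also held a gene that fell beside another that rose. In the cox6a family, whose product lies beside the oxidase core, cox6a2 (gene ID 447942), the counterpart of the mammalian heart and skeletal muscle form, had 9.22, 7.8 and 7.99 CPM in the DAPT libraries, against 15, 11.5 and 11.2 CPM in the DMSO libraries and fell by 0.59 ± 0.12 (adjusted p = 0.00216). The widely expressed form cox6a1 (gene ID 335774) had 337, 333 and 328 CPM in the DAPT libraries, against 280, 270 and 261 CPM in the DMSO libraries, a change of 0.30 ± 0.06 (adjusted p = 0.000889). On TPM with limma the call of cox6a1 was lost (adjusted p = 0.0635). The minor form cox6a2 made up 2.82 ± 0.226% of the family's TPM with DAPT and 5.1 ± 0.652% with DMSO (SD, n = 3 each). In the cox5b family cox5b1 (gene ID 100002384) had 4.35, 3.36 and 3.24 CPM in the DAPT libraries, against 5.79, 4.98 and 5.06 CPM in the DMSO libraries and fell by 0.53 ± 0.15 (adjusted p = 0.0109), which did not pass without DAPT replicate 3 (-0.45, adjusted p = 0.0564). Its paralogue cox5b2 (gene ID 751638) changed by 0.35 ± 0.12 (adjusted p = 0.0304). That call was lost without DAPT replicates 1 or 3 (adjusted p = 0.14 and 0.0773) or DMSO replicate 3 (0.0885), and with DESeq2 (0.0615). Both cox5b genes were among the lowest of the complex, at 11.5 and 38.1 TPM with DAPT and 18.7 and 33.7 TPM with DMSO.

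**Figure D3:**
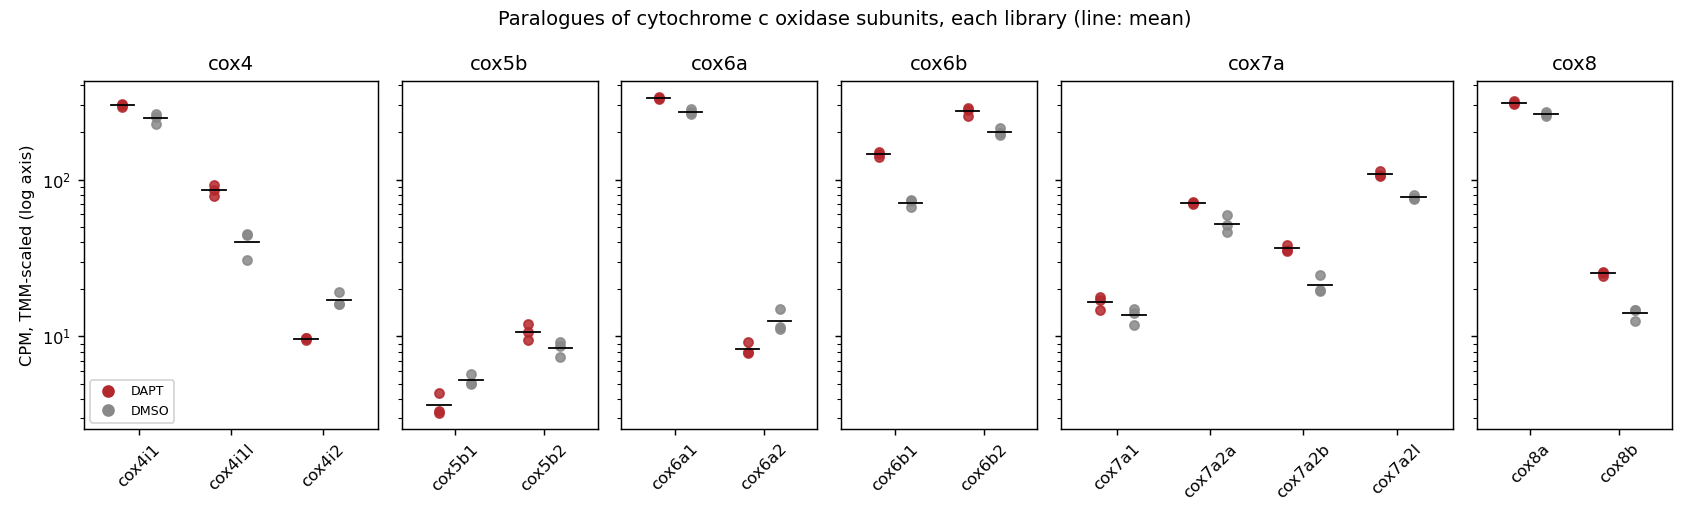
CPM (vertical log axis) in each of the 3 DAPT and 3 DMSO libraries for the paralogues of 6 oxidase subunit families, with group means as lines. The genes cox4i2, cox5b1 and cox6a2 lie lower with DAPT, while cox4i1l, cox6b1, cox7a2b and cox8b show the widest gaps upward.

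The cox6b subunit faces the space between the membranes, at the contact of the oxidase dimer. cox6b1 (gene ID 436968) had 149, 146 and 139 CPM in the DAPT libraries, against 72.6, 74.5 and 67.1 CPM in the DMSO libraries, a change of 1.02 ± 0.06 (adjusted p = 1.04e-07). Its paralogue cox6b2 rose by 0.44 ± 0.06 (adjusted p = 0.000167). In the family's TPM cox6b1 took 43.2, 43.5 and 44% with DAPT, against 34.8, 33.7 and 33.7% with DMSO, so the share of the less expressed form was greater with DAPT. For the cox8 family, which encodes the smallest subunits, cox8b (gene ID 569770) had 24.4, 25.4 and 25.8 CPM in the DAPT libraries, against 14.7, 14.8 and 12.5 CPM in the DMSO libraries, a change of 0.85 ± 0.08 (adjusted p = 5.31e-06). This paralogue is the heart and skeletal muscle form in mice. The more abundant cox8a rose by 0.23 ± 0.05 (adjusted p = 0.00417). That call was lost with library totals (adjusted p = 0.0554) and on TPM with limma (0.351).

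All 4 genes of the cox7a family rose. cox7a2b (gene ID 100535363) had 38.1, 35.8 and 35.2 CPM in the DAPT libraries, against 19.7, 24.8 and 19.5 CPM in the DMSO libraries, a change of 0.77 ± 0.09 (adjusted p = 2.61e-05). The genes cox7a2l and cox7a2a rose by 0.49 ± 0.05 (adjusted p = 1.89e-05) and 0.44 ± 0.08 (adjusted p = 0.000603). cox7a1 (gene ID 767664), the counterpart of the mammalian heart and skeletal muscle form, had 14.8, 17.1 and 17.7 CPM in the DAPT libraries, against 14.9, 14.1 and 11.9 CPM in the DMSO libraries, a change of 0.28 ± 0.10 (adjusted p = 0.0381). It was the only called member whose groups overlapped in CPM. The call was lost without DAPT replicates 2 or 3 (adjusted p = 0.111 and 0.15) or DMSO replicate 3 (0.116). It was also lost with the replicate number as a block (0.0668), with DESeq2 (0.0699), with the stricter filter (0.054) and with library totals (0.141). The cox5a paralogues rose in like measure, cox5aa by 0.30 ± 0.06 and cox5ab by 0.38 ± 0.06. Their shares of the family overlapped between the groups, and on TPM with limma the call of cox5aa was lost (adjusted p = 0.108).

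The ndufa4 genes are named for complex I but encode a subunit now assigned to the oxidase. ndufa4 (gene ID 406298) rose by 0.52 ± 0.08 (adjusted p = 0.000181) and ndufa4l (gene ID 406726) by 0.31 ± 0.06 (adjusted p = 0.00098). The related gene ndufa4l2a, whose mammalian counterpart is known as a low-oxygen gene, had 6.08, 6.49 and 7.47 CPM in the DAPT libraries, against 7.27, 8.6 and 6.8 CPM in the DMSO libraries, a change of -0.18 ± 0.13 (adjusted p = 0.273), and its groups overlapped. It was the only member with counts that were not whole, and on the TPM scale it was lower (-0.31, adjusted p = 0.0354), the additional lower call on that scale. Per length the complex was led by cox6a1, cox8a and cox4i1, at 1009, 915 and 713 TPM over all libraries, and ndufa4l2a was its lowest gene at 10 TPM.

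Paralogue balance was read in 15 families over the 5 complexes, with 35 genes. In 9 families at least 1 gene had a share of the family's TPM that did not overlap between the groups, and no family could give an exact p below 0.1. By gene, 19 of the 35 shares were apart, which is near the 56.8% of all genes tested whose levels were apart, so the count is no result about these families. In the c-ring genes of the ATP synthase, atp5mc3b took 49.3, 49.8 and 49.4% of the family with DAPT, against 45.8, 46 and 44.3% with DMSO. The shares of atp5mc1 and atp5mc3a were correspondingly lower with DAPT. The families atp5if1, atp5me, cox5a, uqcrc2, ndufs8 and sdhd overlapped in every share.

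Complex V had the highest summed level. Its 17 subunit genes came to 11328, 10759 and 11026 TPM in the DAPT libraries, against 10129, 10804 and 9789 TPM in the DMSO libraries. DMSO replicate 2 lay above DAPT replicate 2, so the groups overlapped, although 14 of the 17 genes rose and 3 did not pass. Without DAPT replicate 1 there were 10 that rose, and the share of all genes called in that fit was not computed. The highest levels were those of atp5f1b and atp5fa1, at 1391 and 1334 TPM over all libraries, followed by atp5mc3b at 1186 TPM. The first 2 encode the catalytic beta and the alpha subunits of the head. atp5f1b (gene ID 554135) had 1633, 1570 and 1585 CPM in the DAPT libraries, against 1518, 1633 and 1337 CPM in the DMSO libraries, a change of 0.09 ± 0.08 (adjusted p = 0.341). atp5fa1 (gene ID 553755) had 1559, 1493 and 1554 CPM in the DAPT libraries, against 1444, 1524 and 1202 CPM in the DMSO libraries, a change of 0.14 ± 0.08 (adjusted p = 0.183). In both, DMSO replicate 3 was the lowest library and the groups overlapped. The third gene that did not pass was the c-ring gene atp5mc3a, at 0.11 ± 0.06 (adjusted p = 0.149).

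The largest changes in complex V were those of atp5md, atp5f1e and atp5pf. atp5md (gene ID 794625), which encodes a small membrane subunit also known as DAPIT, had 43.3, 42.4 and 44.3 CPM in the DAPT libraries, against 28.5, 30.8 and 26.4 CPM in the DMSO libraries, a change of 0.60 ± 0.07 (adjusted p = 2.02e-05). atp5f1e (gene ID 798291), for the epsilon subunit of the central stalk, had 101, 101 and 93.8 CPM in the DAPT libraries, against 69.7, 66.9 and 61.9 CPM in the DMSO libraries, a change of 0.58 ± 0.06 (adjusted p = 1.27e-05). atp5pf (gene ID 406599), for coupling factor 6 of the peripheral stalk, changed by 0.52 ± 0.06 (adjusted p = 1.15e-05). In these 3 genes the groups were apart. The peripheral stalk as a group had 4 of 4 genes higher with a median of 0.27, the membrane part 7 of 8 with a median of 0.41, and the head and central stalk 3 of 5 with a median of 0.19.

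Weaker rises were those of atp5po (the oligomycin sensitivity protein) at 0.22 ± 0.06 (adjusted p = 0.0138), atp5mc1 at 0.20 ± 0.06 (adjusted p = 0.0126) and atp5f1d (the delta subunit) at 0.19 ± 0.05 (adjusted p = 0.0118). All 3 were lost without DAPT replicate 1, with adjusted p of 0.0694, 0.0583 and 0.0553, as was the gamma subunit gene atp5f1c (0.28 ± 0.07, 0.051 without it). The c-ring gene atp5mc3b rose by 0.40 ± 0.06 (adjusted p = 0.000252). Inhibitory factor 1 binds the head and blocks ATP breakdown when respiration fails. Its genes atp5if1a and atp5if1b rose by 0.42 ± 0.06 (adjusted p = 0.000187) and 0.43 ± 0.06 (adjusted p = 7.46e-05). atp5if1a (gene ID 100037369) had 82.7, 88.3 and 77.7 CPM in the DAPT libraries, against 65.1, 61.1 and 59.3 CPM in the DMSO libraries, and the groups did not overlap in either gene.

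Among the 12 genes classed as assembly factors that share the name pattern, 5 rose and 7 did not pass, with a median of 0.22. The 7 include the coupling factor B gene atp5s (0.22 ± 0.10, adjusted p = 0.0987). Of the 12, 41.7% were higher, where 22.4% of all genes tested were higher. The assembly factors were lower in level than the subunits, together 283, 277 and 287 TPM in the DAPT libraries, against 263, 289 and 271 TPM in the DMSO libraries. These summed levels overlapped between the groups. ndufaf7 (gene ID 767796), a methyltransferase that modifies a complex I subunit during assembly, had 7.74, 8.78 and 7.66 CPM in the DAPT libraries, against 4.21, 5.32 and 5.11 CPM in the DMSO libraries, a change of 0.72 ± 0.12 (adjusted p = 0.000471), with no overlap. The other 4 that rose, chosen after their values were seen, were ndufaf6 at 0.37 ± 0.10, ndufaf2 at 0.34 ± 0.08, ndufaf5 at 0.26 ± 0.08 and sdhaf2 at 0.22 ± 0.07. The call of ndufaf5 was lost without DAPT replicates 2 or 3 (adjusted p = 0.0567 and 0.0655) or DMSO replicate 1 (0.0603), and with DESeq2 (0.0685). That of sdhaf2 was lost without DAPT replicate 1 (0.0779) or DMSO replicate 1 (0.0568), and with DESeq2 (0.0534). The gene ndufaf3, at 0.14 ± 0.06 (adjusted p = 0.0694), passed without DMSO replicate 2 (0.18, adjusted p = 0.0389).

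Members with a shorter implied length had larger changes. This length is a calculated value, and no annotated transcript length was used. Length was taken as the number of bases implied by the deposited counts and FPKM, and ran from 160 to 2440 bases among the tested members, with a median of 600, against a median of 2184 over all genes tested. Over the 102 members the Spearman correlation of change and length was -0.503, and over the 22092 genes tested it was -0.0809. By complex, the correlation over subunit genes was -0.514 in complex I, -0.619 in complex III, -0.145 in complex IV and -0.765 in complex V. These values describe genes measured in the same 6 libraries and carry no test. With the members ordered by length and split at their percentiles into 4 parts of like size, from short to long, the median log2 fold change was 0.41, 0.30, 0.28 and 0.18. For the other genes tested, split at the same lengths, it was 0.29, 0.16, 0.07 and -0.02. The last of these parts held 19368 genes and had no upper limit of length, whereas the longest member had 2440 bases. Its value is therefore not from the same range of length as that of the longest members.

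**Figure D4:**
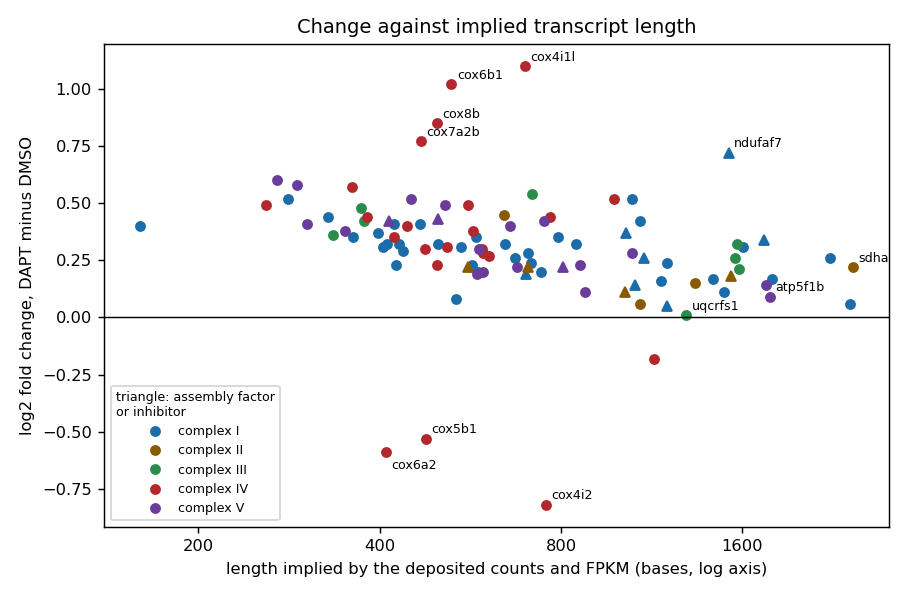
Log2 fold change (DAPT minus DMSO) of the 102 tested members against the length implied by counts and FPKM (log axis), coloured by complex. Genes of short implied length sit higher on the whole. The ends of the range of change, cox4i1l and cox4i2, lie at 697 and 755 bases, above the members' median of 600.

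Length and level were therefore also held against other genes. There were 409 other tested genes with an implied length of 455 to 1049 bases and a mean of at least 36.4 CPM, bounds given by the 25th and 75th percentiles of the members' lengths and the 25th percentile of their levels. Of these 56.5% were higher and 19.6% lower with DAPT, with a median log2 fold change of 0.21. The members, at 80.4% higher, 2.94% lower and a median of 0.31, are to be read beside these values as well as beside the 22.4% of all genes. The values of the members cover all that were tested, also those outside these bounds, so this is not a matched comparison. Whether length has a part in the members' rise was not tested.

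Other genes of the pathway were read by list, to be set beside the 22.4% of all genes tested that were higher and the 24.3% that were lower. Of 25 assembly factors of complex IV 14 rose and 11 did not pass, with a median of 0.32. The copper chaperone gene cox17 had 65.9, 65.7 and 68.9 CPM in the DAPT libraries, against 46.9, 46.2 and 40.8 CPM in the DMSO libraries, a change of 0.58 ± 0.06 (adjusted p = 1.70e-05), and coa6 and higd1a changed by 0.57 ± 0.09 (adjusted p = 0.000356) and 0.55 ± 0.08 (adjusted p = 0.000129). Of 6 assembly factors of complex III 4 rose (median 0.30), among them uqcc3 at 0.35 ± 0.08 (adjusted p = 0.00407), lyrm7 at 0.43 ± 0.11 (adjusted p = 0.00615) and uqcc2 at 0.25 ± 0.07 (adjusted p = 0.0121). The last was lost without DAPT replicate 1 (adjusted p = 0.0526). Of the 9 complex I assembly factors outside the name pattern, 2 rose, coa1 at 0.33 ± 0.09 (adjusted p = 0.0128) and acad9 at 0.19 ± 0.07 (adjusted p = 0.0323), and 7 did not pass, among them tmem186 at -0.32 ± 0.13 (adjusted p = 0.0654). The median was -0.01. The call of coa1 was lost without DAPT replicate 3 (0.0533) or DMSO replicate 1 (0.0518), and that of acad9 without DAPT replicates 2 or 3 (0.114 and 0.0795) or DMSO replicate 1 (0.103), with DESeq2 (0.0958) and with the stricter filter (0.0539). For complex V the 2 assembly factors atpaf1 and atpaf2 had 0.12 ± 0.07 (adjusted p = 0.184) and 0.10 ± 0.09 (adjusted p = 0.385).

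Of 14 genes for mobile carriers, ubiquinone synthesis and cytochrome c1, 6 rose, 1 fell and 7 did not pass (median 0.18). cyc1, which encodes cytochrome c1 and so belongs to complex III although its symbol lies outside the pattern, had 424, 402 and 409 CPM in the DAPT libraries, against 321, 335 and 306 CPM in the DMSO libraries, a change of 0.36 ± 0.06 (adjusted p = 0.000366). The ubiquinone synthesis genes pdss1 and coq9 rose by 0.34 ± 0.07 (adjusted p = 0.00163) and 0.29 ± 0.07 (adjusted p = 0.0072), and the gene that fell, coq2, chosen after its values were seen, had -0.32 ± 0.10 (adjusted p = 0.0218). That call was lost without DAPT replicates 1 or 3 (adjusted p = 0.0595 and 0.0756) or DMSO replicate 1 (0.0888), and with DESeq2 (0.0964). Genes of the citric acid cycle and of pyruvate dehydrogenase, which feed the chain with electrons, were read together in a list of 19. Of these 12 rose, 1 fell and 6 did not pass, with a median of 0.21. Among them mdh2 and suclg2 rose by 0.33 ± 0.06 (adjusted p = 0.000591) and 0.32 ± 0.06 (adjusted p = 0.000925). The gene that fell was pdha1b, a pyruvate dehydrogenase paralogue of low level, with 1.19, 1.12 and 0.517 CPM in the DAPT libraries, against 3.06, 2.09 and 3.65 CPM in the DMSO libraries.

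**Figure D5:**
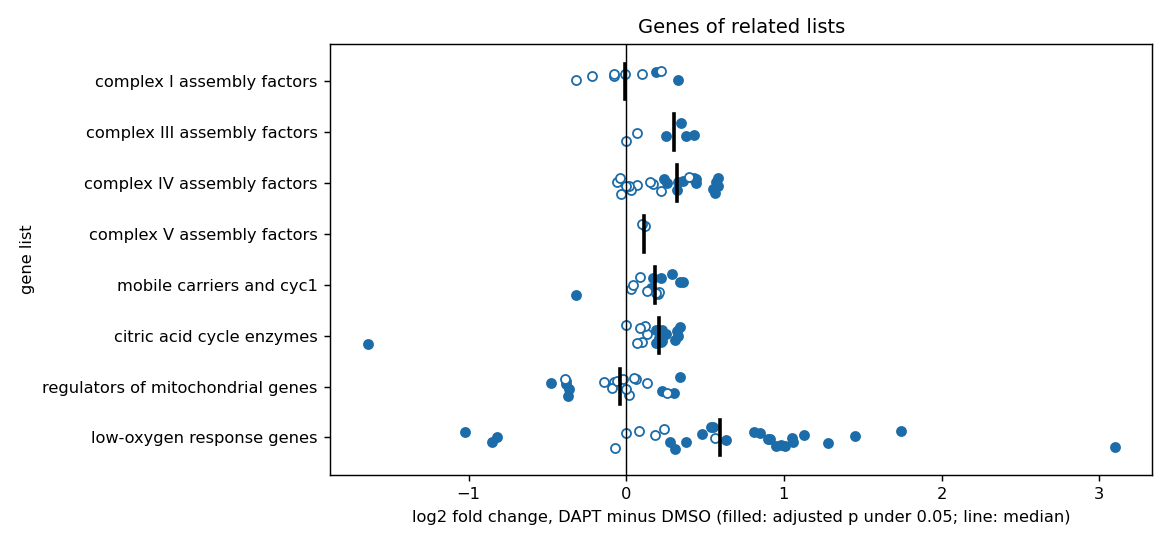
Log2 fold change (DAPT minus DMSO, horizontal axis) of each gene in 8 related lists, with the list median as a line and filled points for an adjusted p under 0.05. The lists for complex III, IV and V assembly, carriers, the citric acid cycle (with pyruvate dehydrogenase genes) and low-oxygen response have medians above 0. The largest median is that of the low-oxygen list, at 0.60. Complex I assembly and the regulators centre near 0.

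The list of regulators of mitochondrial genes had 20 tested, of which 3 rose and 5 fell, and its median was -0.04. That is 15% higher and 25% lower, near the 22.4% and 24.3% of all genes tested, so the counts are no result about the list. esrra and esrrga encode oestrogen-related receptors, known in mammals to drive oxidative phosphorylation genes. The first had 34.5, 37.4 and 38 CPM in the DAPT libraries, against 47.4, 47.9 and 45.6 CPM in the DMSO libraries, a change of -0.36 ± 0.06 (adjusted p = 0.000448), and esrrga changed by -0.37 ± 0.06 (adjusted p = 0.000559). The coactivator gene pprc1 changed by -0.48 ± 0.09 (adjusted p = 0.00136). The other 2 that fell were the mitochondrial DNA polymerase gene polg and the helicase gene twnk, each at -0.38. The call of polg was lost without DAPT replicates 1 or 3 (adjusted p = 0.065 and 0.0562) and with DESeq2 (0.0555). The 3 that rose, chosen with polg and twnk after their values were seen, were the coactivator genes ppargc1a at 0.34 ± 0.07 (adjusted p = 0.00179) and ppargc1b at 0.23 ± 0.05 (adjusted p = 0.00384) and the transcription factor gene tfb2m at 0.30 ± 0.07 (adjusted p = 0.00294). On TPM with limma all 3 calls were lost (adjusted p = 0.0875, 0.408 and 0.125 in this order). That of ppargc1b was lost with library totals too (adjusted p = 0.0609).

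Low-oxygen response genes were mostly higher, with 21 of 30 higher, 3 lower and 6 not passing and a median of 0.60. That is 70% higher and 10% lower, where 22.4% of all genes tested were higher and 24.3% were lower. This list was set beside the members because cox4i2 and the ndufa4l2 genes have low-oxygen counterparts in mammals. egln3, a prolyl hydroxylase gene of the oxygen-sensing pathway, had 64.3, 73.2 and 64.9 CPM in the DAPT libraries, against 9.23, 7.5 and 6.84 CPM in the DMSO libraries. The genes egln2 and bnip3lb rose by 1.74 ± 0.09 (adjusted p = 3.96e-08) and 1.28 ± 0.07 (adjusted p = 3.78e-08), and the counts of egln2 include reads that are not whole. In the same libraries cox4i2 fell and ndufa4l2a did not pass. The 3 listed genes that fell, chosen after their values were seen, were slc2a1a, ca9 and epas1b, at -1.02, -0.85 and -0.82.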

How the data were processed

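RNA was sequenced from 3 DAPT and 3 DMSO libraries. The build was GRCz11 and the tools were STAR 2.7.1a with featureCounts 1.6.0 and edgeR, per the submitters' processing notes; their roles, the annotation and the strand setting are not given in the sources used here. The deposited read counts were taken as estimated counts, since 15.2 to 16% of the values are not whole; 103 of the 104 members are whole in all libraries. TPM and FPKM were calculated by the authors. TPM served for levels between genes, and FPKM with the counts for implied length.

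Counts were rounded and fitted with edgeR 4.0.16 in R 4.3.3 (filterByExpr, TMM, quasi-likelihood F test, 4 residual degrees of freedom) over 22092 genes, with Benjamini-Hochberg adjustment over all of them and a threshold of 0.05. The standard error is the log2 fold change over the square root of F. In a simulation of 22092 genes 96% of changes of 0.5 on the log2 scale were recovered, and 7.11% of calls were false. Only a small set of genes, none of low level, was changed in it, far fewer than were called in the real data. All genes were given the same spread. The smallest change simulated, 0.5, was larger than the members' median of 0.31, so recovery at that size was not measured. Alternatives were DESeq2 1.42.0, limma 3.58.1, other scalings and filters, a replicate block, single libraries left out and, chosen after seeing the data, TPM.

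Members and lists were chosen with earlier results of these data known. Genes named were, per complex, the 3 of highest TPM, the 3 largest and 3 lowest changes among those passing, all cox4, cox5a, cox6a, cox7a, cox8, ndufa4 and atp5if1 genes, assembly factors changed by at least 0.5, and the 3 smallest p of each related list; any others were chosen after their values were seen. Besides the heart, fast skeletal muscle, retina and liver marker lists, those of endothelium (4 of 5 higher), exocrine pancreas (4 of 4 lower), neuron (4 of 5 lower), erythrocyte (4 of 4 higher), epidermis (2 higher and 1 lower of 4) and intestine (3 higher and 1 lower of 4) were read. Of a list of 26 mitochondrially encoded subunit genes 0 were matched, and they were not analysed here. Depth was 20542549 to 21808613 counts per library, and no intervals were computed for single shares. Not every member is described singly, and a single-gene result that was computed is not reported here; counts and sums hold all members.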

Additional observations from a re-analysis of the deposited data

How the results depend on the processing

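The counts of members higher (82) and lower (3) stayed within 1.5 times under DESeq2 size factors, library totals and both other filters. The same held under DESeq2, limma-voom and subunits only. The lowest of these counts of members higher was 60, with library totals. Members with whole counts only gave 82 and 3 again. That is no check, as ndufa4l2a, the only gene it leaves out, was not called. On TPM, an alternative chosen after the data were seen, 42 were higher and the median was 0.14. Of the subunit genes, those higher on TPM were 12 in complex I, 1 in complex II, 5 in complex III, 13 in complex IV and 8 in complex V. With library totals the median of the members was 0.21. Leaving out each library in turn gave 69 to 85 higher, 2 to 3 lower, a median of 0.26 to 0.34, and a gain in share (DAPT minus DMSO) of 0.128 to 0.187 percentage points of counts and 0.245 to 0.363 of TPM, against 0.155 and 0.298 with all 6 libraries. The share of all genes called was computed only for the main fit and on TPM. Counts of members called under the other alternatives therefore have no such share beside them. With the replicate number as a block 81 were higher and 3 lower, with a median of 0.31. Of the single genes described, cox7a1 alone lost its call with the block (adjusted p = 0.0668). Same-numbered libraries did not deviate together (correlations of 0.00917, -0.0679 and -0.0255 for numbers 1, 2 and 3), so the numbers were not taken as pairs. Among single genes, 136 of the values under alternatives lost a call, 6 gained one, 25 changed sign and 1705 did neither. With library totals the sign changed in atp5f1b and atpaf2 (-0.00 each), ndufb9 (-0.01), ndufaf1, ndufs1 and sdhb (-0.04 each) and uqcrfs1 (-0.08). On TPM it changed in ndufa10 and sdhdb (-0.00 each), atp5fa1 (-0.01), ndufaf3 (-0.02), atpaf1 (-0.03), sdhaf3 (-0.04), atp5mc3a (-0.05), atp5f1b and atpaf2 (-0.06 each), ndufb9 (-0.08), ndufaf1, ndufs1 and sdhb (-0.10 each) and uqcrfs1 (-0.14). With the stricter filter uqcrfs1 was at -0.01, and with single libraries left out at -0.03 to 0.08. Of the genes listed here only ndufa10 had passed. The scalings differ by construction in the total they hold fixed; other causes were not tested.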
